A study of Mus musculus with 8 samples.

Results

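The costimulatory receptors described here are 10 genes for proteins on the T cell surface: Tnfrsf4 (OX40), Tnfrsf9 (4-1BB), Tnfrsf18 (GITR), Tnfrsf1b (TNF receptor 2), Cd27, Cd28, Icos, Cd69, Cd226 (DNAM-1) and Slamf1 (CD150). They were listed by name, found by their symbols in the authors' table of log2 values and joined by gene ID to the counts, where they were 10 of 45777 genes. All 10 passed the filter on low counts and were among the 16750 genes tested, and the lowest count of any of them in any library was 451, of Slamf1. RNA-seq counts came from CD8+ T cells of C57BL/6 mice, taken from lymph nodes and spleen, stimulated with antibodies to CD3 and CD28 and treated for 48 hours. Each of 4 groups had 2 libraries: cells given the vehicle DMSO, cells given EnPGC-1, cells given Ctrl PIP, and cells given SGC-CBP30, which blocks the bromodomains of CBP and p300. All groups had the same CD3 and CD28 stimulation, so no library shows unstimulated cells. The labels call the treatments PIPs, name the control by Ctrl PIP and give no doses, and nothing in them says whether the libraries of a group came from separate mice or cultures. The p-values therefore measure only how these libraries vary, and that variation may be technical.

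A T cell that meets antigen through its receptor needs a further signal through costimulatory receptors to divide, survive and make cytokines. CD28 is present before stimulation and acts through PI3K and the adaptor GRB2, and its relative ICOS appears on activated cells. The TNF receptor members act through TRAF adaptors on NF-kB, and of these CD27 is already on naive cells, whereas OX40 and 4-1BB are induced by stimulation.

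The total count was 38890043 to 55491261 per library. The 10 T cell markers, Cd8a and Cd8b1 among them, were detected in every group and summed to 4385 to 6143 CPM (counts per 1000000 of the library's total, adjusted by TMM), with Cd8a at 904 to 1241 CPM. Cd4 was at 4.54 to 14.1 CPM. The B cell, myeloid, natural killer (NK) and erythroid and platelet lists each summed to less than 100 CPM in every library, whereas the CD4 and regulatory T cell list summed to 453 to 818 CPM, most of it Ctla4 (237 to 440 CPM), which activated CD8+ T cells also express. The libraries also differed in a trend with transcript length. Its sign split the libraries of DMSO and of EnPGC-1, but not those of Ctrl PIP or of SGC-CBP30. The Spearman correlation, across genes, between transcript length and a library's deviation from each gene's mean was 0.593 and -0.637 in DMSO 1 and 2 (named by group and replicate number), and 0.504 and -0.553 in EnPGC-1 1 and 2. It was -0.543 and -0.195 in Ctrl PIP 1 and 2, and 0.561 and 0.506 in SGC-CBP30 1 and 2. Between Ctrl PIP and SGC-CBP30 the trend thus ran with the treatment, and its part in their differences was not tested. Short transcripts thus read relatively high in DMSO 2, EnPGC-1 2 and Ctrl PIP 1, and relatively low in DMSO 1, EnPGC-1 1 and both SGC-CBP30 libraries.

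The 4 Tnfrsf members lie on chromosome 4 (RefSeq, GRCm38.p6). Tnfrsf4 at chr4:156013595-156016613 and Tnfrsf18 at chr4:156026322-156028894 are separated by 9708 bases, while Tnfrsf9 lies at chr4:150920155-150946104 and Tnfrsf1b at chr4:145212368-145246870. Cd28 (chr1:60746388-60773359) and Icos (chr1:60960773-61000322) stand on either side of Ctla4, the inhibitory receptor of the same family. Slamf1 is at chr1:171767131-171801184, and Cd27 (chr6:125232620-125237136) and Cd69 (chr6:129267324-129275375) are both on chromosome 6.

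Tnfrsf9 had the widest range of levels among the members as a ratio, 5.96-fold between its highest and lowest library, and the sequence before its RefSeq starts is shown for that reason. RefSeq's promoter table gives it 2 starts on the plus strand. The 250 bases that end at the first start (chr4:150919905-150920154), followed by 30 bases that end 20 bases short of the other one (chr4:150927949-150927978), read as follows, with capitals marking the match to the kappa-B motif that NF-kB binds.
Tnfrsf9, first start: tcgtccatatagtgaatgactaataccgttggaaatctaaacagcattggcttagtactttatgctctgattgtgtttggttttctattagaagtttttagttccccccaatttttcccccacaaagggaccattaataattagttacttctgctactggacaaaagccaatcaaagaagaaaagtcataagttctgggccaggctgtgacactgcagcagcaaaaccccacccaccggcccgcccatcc
Tnfrsf9, second start: agcagctGGGGATTTCCCaggaggccctgc

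The 11 capitals hold 2 overlapping matches to the kappa-B consensus, whose first bases lie 43 and 42 bases before the second start. The AP-1 motif TGANTCA, searched on both strands as all motifs were, matched once in the 250 bases before that start, 15 bases from it. The NFAT core GGAAA matched 3 times there, and 1 of these, on the other strand, lies inside the capitals. Before the first start there were 0 matches to kappa-B, 0 to AP-1 and 2 to NFAT. Of 32851 promoters in the table, 7.25% held a kappa-B match in their 250 bases, 6.75% an AP-1 match and 55.6% an NFAT match. These are matches of letters, and neither binding nor use of a start was measured. The bases after the first start were found in 1 of 9 GENCODE transcripts of Tnfrsf9 and those after the second in 3 of 9. The bases after the RefSeq start of Tnfrsf4 were found in 0 of 3 transcripts of that gene, and its promoter is not shown.

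Transcripts of the inducible TNF receptors 4-1BB and OX40 were lowest in the EnPGC-1 and SGC-CBP30 libraries. Tnfrsf9 encodes 4-1BB, which sustains the survival and effector function of CD8+ T cells, and its level was 53.7 and 191.0 CPM in the DMSO libraries and 118 and 57.5 CPM in the Ctrl PIP libraries. It was 32.1 and 41.7 CPM with EnPGC-1 and 34.3 and 35.4 CPM with SGC-CBP30. All 4 libraries of the 2 latter groups were below all 4 of DMSO and Ctrl PIP, but both control groups were spread widely, with DMSO 2 far above the rest. The fitted log2 fold change was -1.73 ± 0.61 (SE, n = 2 per group) for EnPGC-1 against DMSO and -1.81 ± 0.61 for SGC-CBP30 against DMSO. The edgeR adjusted p-values were 0.998 and 0.943, so neither passed 0.05. In bulk RNA, fewer cells with a transcript and less of it per cell cannot be told apart.

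Tnfrsf4 encodes OX40, which supports clonal expansion and memory. Its level was 17.7 and 58.6 CPM in DMSO, 32.7 and 26.9 CPM in Ctrl PIP, 14.8 and 16.4 CPM in EnPGC-1 and 16.5 and 14.3 CPM in SGC-CBP30. Again no EnPGC-1 or SGC-CBP30 library reached the lowest DMSO or Ctrl PIP library, although DMSO 1 stood only slightly above the highest of them, SGC-CBP30 1. The log2 fold change was -1.29 ± 0.51 (SE) for EnPGC-1 against DMSO and -1.31 ± 0.51 for SGC-CBP30 against DMSO, with edgeR adjusted p-values of 0.998 and 0.943. Against Ctrl PIP it was -0.94 ± 0.51 for EnPGC-1 and -0.95 ± 0.51 for SGC-CBP30 (edgeR adjusted p = 0.812 and 0.871).

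The remaining TNF receptor members were closer between groups. Tnfrsf18, the gene next to Tnfrsf4, encodes GITR, a receptor of activated and regulatory T cells. It was at 58.8 and 128 CPM in DMSO, 95.2 and 72.1 CPM in Ctrl PIP, 39.3 and 88.2 CPM in EnPGC-1 and 62.2 and 57.2 CPM in SGC-CBP30. The EnPGC-1 libraries lay on both sides of the lower DMSO library, so the groups overlapped, and the 2 SGC-CBP30 libraries were below both of Ctrl PIP. The log2 fold change against DMSO was -0.55 ± 0.48 for EnPGC-1 and -0.64 ± 0.48 for SGC-CBP30. Tnfrsf1b encodes the TNF receptor that lacks a death domain and costimulates T cells. Its 8 libraries spanned 78.2 to 116 CPM, with 96.0 and 112 CPM in DMSO, 110 and 116 CPM in Ctrl PIP, 79.7 and 100 CPM in EnPGC-1 and 80.9 and 78.2 CPM in SGC-CBP30. Both SGC-CBP30 libraries were below all 4 of DMSO and Ctrl PIP, at a log2 fold change of -0.38 ± 0.19 against DMSO and -0.51 ± 0.19 against Ctrl PIP (edgeR adjusted p = 0.943 and 0.871). Cd27 binds CD70 and supports the survival of primed cells. It was the most even member, from 294 CPM in Ctrl PIP 2 to 384 CPM in EnPGC-1 2, with overlapping groups in all 6 comparisons.

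**Figure D1:**
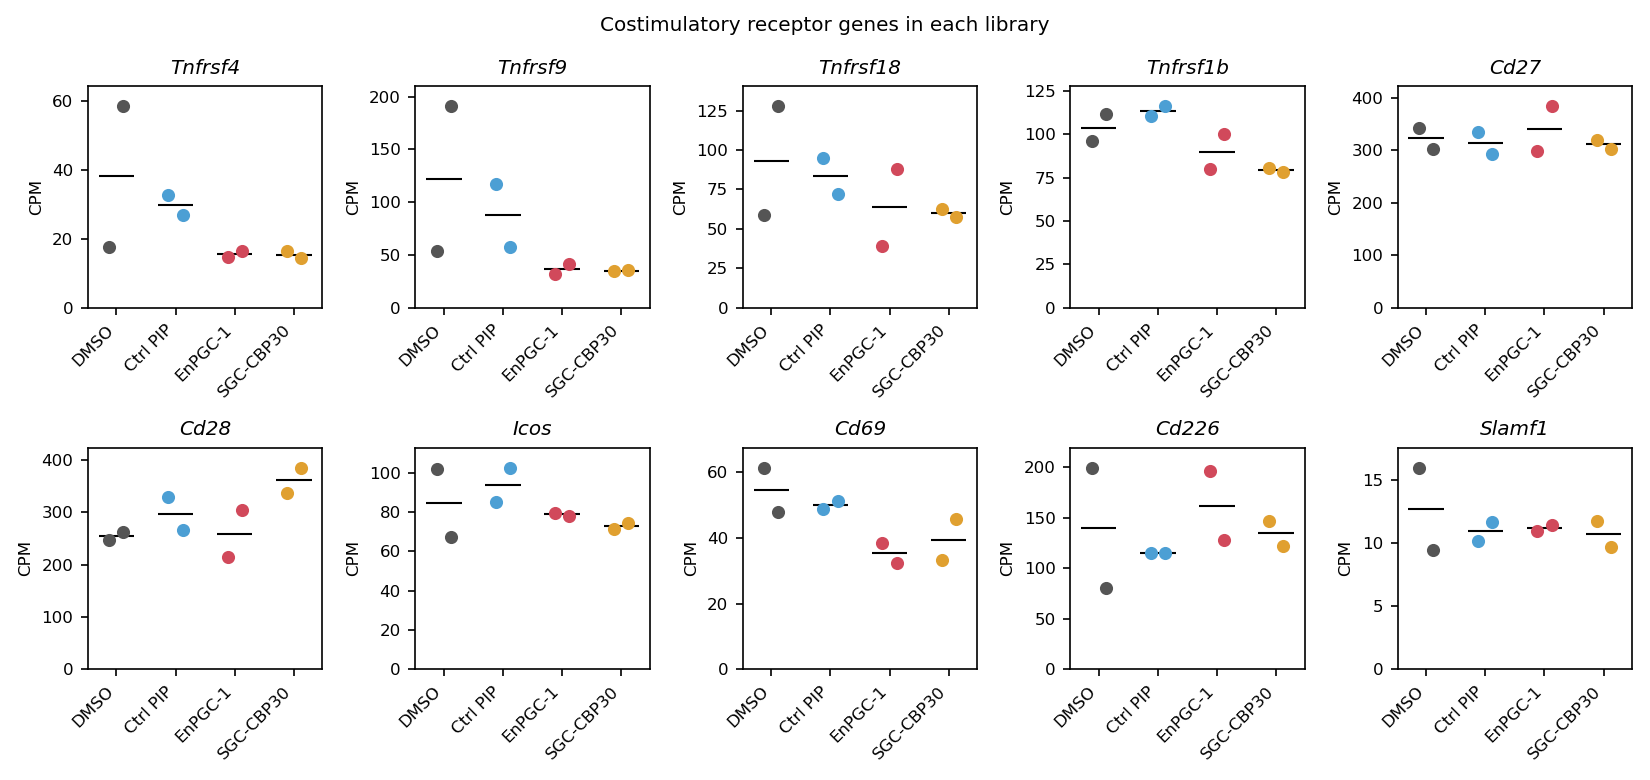
Level of each of the 10 receptor genes in CPM (y axis, starting at 0) in the 2 libraries of each group, 1 point per library with replicate 1 left and replicate 2 right, and a bar at the group mean. For Tnfrsf4, Tnfrsf9 and Cd69 the 4 EnPGC-1 and SGC-CBP30 points lie below the 4 DMSO and Ctrl PIP points, and the DMSO points of Tnfrsf9 are far apart at 53.7 and 191.0 CPM.

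Of the CD28 family, Cd28 itself was highest with SGC-CBP30. It was at 247 and 263 CPM in DMSO, 329 and 266 CPM in Ctrl PIP, 214 and 304 CPM in EnPGC-1 and 337 and 386 CPM in SGC-CBP30. Both SGC-CBP30 libraries exceeded the other 6, whereas the EnPGC-1 libraries lay on either side of the DMSO pair. The log2 fold change was 0.50 ± 0.24 (SE) for SGC-CBP30 against DMSO and 0.02 ± 0.24 for EnPGC-1 against DMSO, with edgeR adjusted p-values of 0.943 and 1. Icos promotes cytokine production by activated cells. It was at 102 and 67.2 CPM in DMSO, 85.0 and 103 CPM in Ctrl PIP, 79.5 and 78.3 CPM in EnPGC-1 and 71.4 and 74.5 CPM in SGC-CBP30. The DMSO libraries enclosed those of EnPGC-1 and SGC-CBP30, and both treated groups were below both Ctrl PIP libraries, at log2 fold changes of -0.25 ± 0.24 and -0.36 ± 0.24. Cd28 and Icos thus differed between EnPGC-1 and DMSO by less than the spread between libraries, with 95% intervals of -0.56 to 0.60 and -0.67 to 0.47.

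Cd69 is an early activation marker that keeps lymphocytes in tissue by opposing the egress receptor S1PR1. It was at 61.5 and 48.0 CPM in DMSO, 48.7 and 51.2 CPM in Ctrl PIP, 38.4 and 32.3 CPM in EnPGC-1 and 33.3 and 45.6 CPM in SGC-CBP30. The 4 EnPGC-1 and SGC-CBP30 libraries were below the other 4, by a small gap between 45.6 and 48.0 CPM. The log2 fold change was -0.63 ± 0.24 (SE) for EnPGC-1 and -0.47 ± 0.24 for SGC-CBP30, each against DMSO (edgeR adjusted p = 0.998 and 0.943). Cd226 encodes an adhesion receptor that promotes killing after binding CD155 or CD112, and its level was 199.6 and 80.2 CPM in DMSO, 115 and 116 CPM in Ctrl PIP, 196 and 128 CPM in EnPGC-1 and 147 and 122 CPM in SGC-CBP30. The DMSO pair held both the highest and the lowest value of the 8, and the log2 fold change of EnPGC-1 against DMSO was 0.21 ± 0.43. Slamf1, a receptor that binds itself on other lymphocytes and signals through the adaptor SAP, was at 9.46 to 16.0 CPM, with both extremes again in DMSO.

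Per kilobase of transcript, Cd27 was the most abundant member and Slamf1 the least in every group, without overlap with their neighbours. In DMSO they were at 207 and 4.72 CPM per kb, and between them came, in descending order, Tnfrsf18, Cd28, Tnfrsf9, Tnfrsf4, Cd69, Cd226, Tnfrsf1b and Icos. Each of those 8 except Icos, the last, overlapped the next in its 2 libraries, so the order of neighbours was not resolved. With EnPGC-1 the order below Cd27 was Cd28, Tnfrsf18, Cd226, Icos, Tnfrsf1b, Cd69, Tnfrsf9 and Tnfrsf4. Cd28 and Tnfrsf18 overlapped the gene after them, as did Icos, Tnfrsf1b, Cd69 and Tnfrsf9, so the order of those neighbours was not resolved either. Cd226 stood above all genes after it, with its lower library at 28.4 CPM per kb and the highest of theirs, of Tnfrsf1b, at 26.2. Tnfrsf9, at 57.8 CPM per kb beside 58.7 of Cd28 in DMSO, was at 17.4 CPM per kb beside 59.6 of Cd28 with EnPGC-1.

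No gene passed edgeR's quasi-likelihood test at an adjusted p of 0.05 in any of the 6 comparisons, so 0 of 10 members were called and the background was 0.0% of 16750 genes. DESeq2's Wald test called 19 genes in EnPGC-1 against DMSO (0.0827%), 63 in SGC-CBP30 against DMSO (0.363%) and 2 in Ctrl PIP against DMSO (0.00855%). It called 36 in EnPGC-1 against Ctrl PIP (0.189%), 31 in SGC-CBP30 against Ctrl PIP (0.133%) and 16 in EnPGC-1 against SGC-CBP30 (0.0802%), and 0 members in each. At an unadjusted edgeR p under 0.05, 3 members were lower with EnPGC-1 than with DMSO (Tnfrsf9, Cd69 and Tnfrsf4), against 1.81% of all genes, and 0 were higher, against 0.8%. Lower with SGC-CBP30 than with DMSO at that level were 2 members (Tnfrsf9 and Tnfrsf4, background 2.82%), and lower than with Ctrl PIP 1 member (Tnfrsf1b, background 2.56%), while 0 were higher in either (1.57% and 1.43%). EnPGC-1 against Ctrl PIP had 0 members lower (2.77%) and 0 higher (1.71%), EnPGC-1 against SGC-CBP30 0 lower (0.931%) and 0 higher (1.1%), and Ctrl PIP against DMSO 0 lower (0.364%) and 0 higher (0.233%).

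By separation of the libraries, 3 members in EnPGC-1 were below both DMSO libraries (9.24% of all genes) and 0 were above (9.83%). SGC-CBP30 had 4 members below DMSO (14.5%) and 1 above (16.2%), and Ctrl PIP 0 below (7.83%) and 1 above (8.34%). Against Ctrl PIP, EnPGC-1 had 5 below (21.7%) and 1 above (20.7%), and SGC-CBP30 had 6 below (30.2%) and 2 above (31.5%). The members with all 4 EnPGC-1 and SGC-CBP30 libraries below all 4 of DMSO and Ctrl PIP were Tnfrsf4, Tnfrsf9 and Cd69, 3 of 10, against 3.73% of all genes, and 0 members stood the other way, against 2.98%. The median log2 fold change of the 10 members was -0.20 for EnPGC-1, -0.32 for SGC-CBP30 and -0.14 for Ctrl PIP, each against DMSO, where the medians of all genes were 0, -0.03 and -0.05. These 3 comparisons share the DMSO libraries. Below 0 were 7 members with EnPGC-1 (49.8% of all genes), 9 with SGC-CBP30 (52.7%) and 7 with Ctrl PIP (58.4%). Against Ctrl PIP, 7 members were below 0 with EnPGC-1 (45.9%) and 8 with SGC-CBP30 (48.5%), and 2 were lower with EnPGC-1 than with SGC-CBP30 (47.1%).

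**Figure D2:**
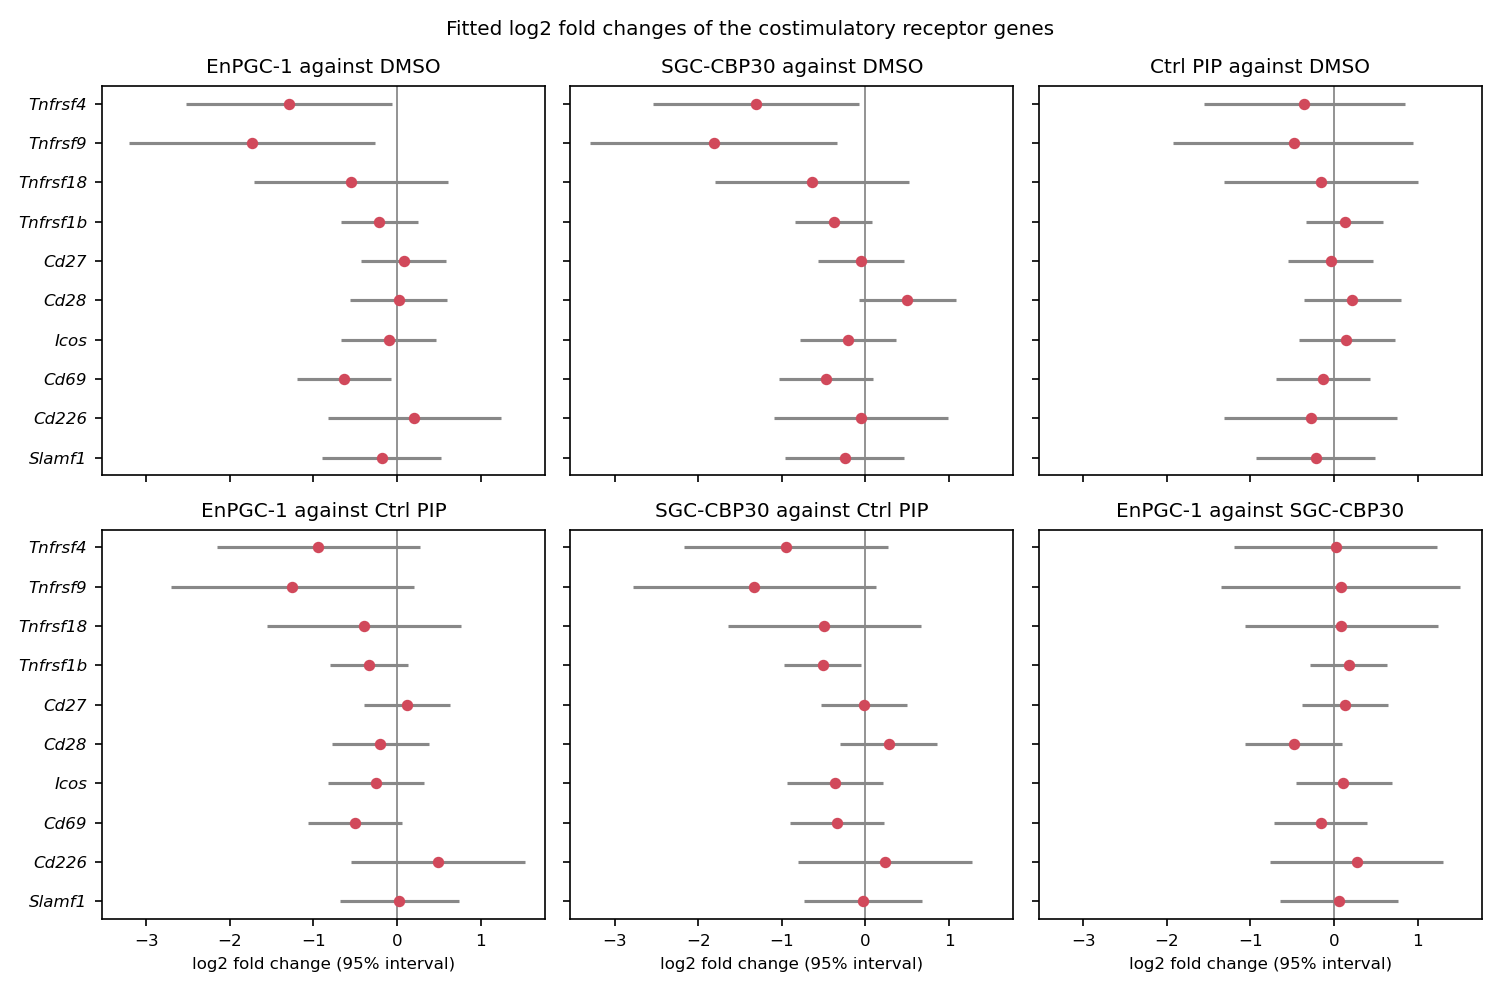
Fitted log2 fold changes (x axis, points) of the 10 receptor genes with 95% intervals (lines) in each of the 6 comparisons. Intervals are per gene and not adjusted for the number of genes. Those of Tnfrsf4 and Tnfrsf9 lie below 0 in the EnPGC-1 and SGC-CBP30 comparisons with DMSO. They reach above 0 against Ctrl PIP and are centred near 0 between EnPGC-1 and SGC-CBP30. Also below 0 are Cd69 in EnPGC-1 against DMSO (-1.19 to -0.07) and Tnfrsf1b in SGC-CBP30 against Ctrl PIP (-0.97 to -0.05).

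The compounds could not be matched for dose, since the labels give none, and their values stand side by side. EnPGC-1 and Ctrl PIP differed by a log2 fold change of -1.25 for Tnfrsf9 (95% interval -2.70 to 0.21), -0.94 for Tnfrsf4 (-2.15 to 0.28) and -0.50 for Cd69 (-1.06 to 0.06). Each interval includes 0 and also a more than 2-fold difference, so at 2 libraries per group neither a difference nor its absence was shown. EnPGC-1 and SGC-CBP30 had nearly equal means of Tnfrsf4 (0.02, interval -1.19 to 1.23) and Tnfrsf9 (0.08, interval -1.35 to 1.51). Cd28 had the largest difference of any member between these compounds, at -0.48 (-1.06 to 0.10), with both EnPGC-1 libraries below both SGC-CBP30 libraries. For separated members, these 2 groups had 1 lower (Cd28, background 14.7%) and 1 higher (Icos, background 13.2%).

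The size of the Tnfrsf9 and Tnfrsf4 differences from DMSO rested on DMSO 2. Without that library, the log2 fold change of EnPGC-1 against DMSO was -0.54 for Tnfrsf9, -0.18 for Tnfrsf4 and 0.12 for Tnfrsf18, and that of SGC-CBP30 was -0.62, -0.20 and 0.02. Without DMSO 1 the values of Tnfrsf9 and Tnfrsf4 were -2.36 and -1.89 for EnPGC-1. Cd69 went the other way, with -0.80 for EnPGC-1 without DMSO 2 and -0.42 without DMSO 1. The Tnfrsf9 difference from Ctrl PIP rested in part on Ctrl PIP 1, since without it the value was -0.65 for EnPGC-1 and -0.73 for SGC-CBP30. Members were called in 3 of the other fits. Without replicate 1 of DMSO and EnPGC-1, Tnfrsf4 (-1.83, edgeR adjusted p = 0.0245) and Tnfrsf9 (-2.19, adjusted p = 0.0419) were lower with EnPGC-1, where 6.44% of all genes were called. That fit keeps DMSO 2 and leaves 1 library in each of these groups. The mirror fit, without replicate 2 of both groups, gave -0.25 for Tnfrsf4 and -0.74 for Tnfrsf9. The size of both differences thus depended on the replicate kept. A fit of only the SGC-CBP30 and Ctrl PIP libraries, whose length trends had opposite signs, called 15.8% of all genes. There Tnfrsf4 (-0.96), Tnfrsf1b (-0.52) and Tnfrsf9 (-1.33) were lower with SGC-CBP30 (edgeR adjusted p = 0.0143, 0.0224 and 0.0355). With the length and GC offset described next, the same 4 libraries gave 2 members, Tnfrsf4 (-0.61) and Tnfrsf1b (-0.58), lower with SGC-CBP30 (edgeR adjusted p = 0.033 and 0.0149), where 9.3% of all genes were called.

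The libraries' length trend moved with some of these receptors. Over the 8 libraries, log2 CPM had a Pearson correlation with the trend of -0.87 for Tnfrsf18, -0.82 for Tnfrsf1b, -0.73 for both Tnfrsf4 and Tnfrsf9, 0.76 for Cd226 and 0.03 for Cd69, with library composition shared by all points. It was -0.27 for Cd27, -0.05 for Cd28, 0.13 for Icos and 0.45 for Slamf1. The transcripts had 1030 bases for Tnfrsf4, 1189 for Tnfrsf18, 2115 for Tnfrsf9 and 4494 for Cd226. Tnfrsf1b had a negative correlation although its transcript was long, at 3818 bases. Cd28 and Icos, at 4347 and 3241 bases, had nearly none. EnPGC-1 2 had a trend like that of DMSO 2 and Ctrl PIP 1 (-0.553 beside -0.637 and -0.543). Its Tnfrsf4 was 16.4 CPM beside 58.6 and 32.7, and its Tnfrsf9 was 41.7 CPM beside 191.0 and 118. Tnfrsf18 in those libraries was 88.2 CPM beside 128 and 95.2. At the positive end were DMSO 1 (trend 0.593), EnPGC-1 1 (0.504) and SGC-CBP30 1 and 2 (0.561 and 0.506). There Tnfrsf4 was 17.7 CPM in DMSO 1 beside 14.8, 16.5 and 14.3 CPM in the others, in that order. Tnfrsf9 was 53.7 CPM beside 32.1, 34.3 and 35.4, and Tnfrsf18 was 58.8 CPM beside 39.3, 62.2 and 57.2. With an offset for transcript length and GC content in each library, the log2 fold change of EnPGC-1 against DMSO was -1.60 for Tnfrsf9, -0.86 for Tnfrsf4 and -0.32 for Tnfrsf18, and that of SGC-CBP30 was -1.59, -0.78 and -0.23. The offset fit of all 8 libraries called 0 members at an edgeR adjusted p of 0.05.

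**Figure D3:**
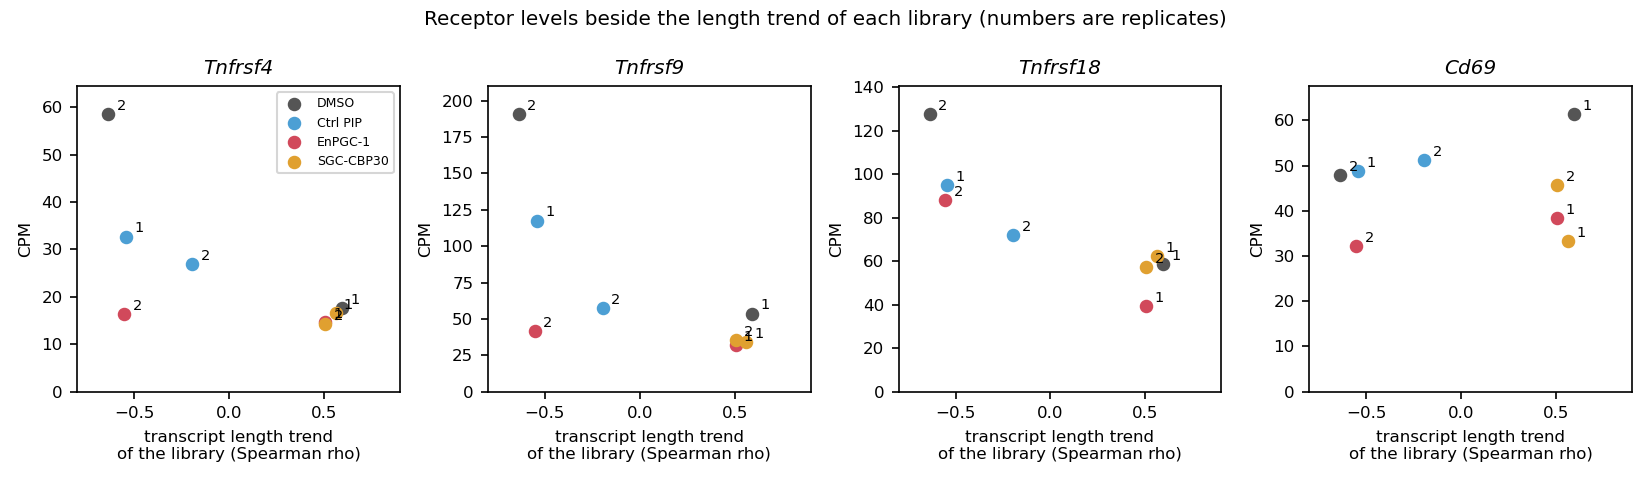
Level in CPM (y axis) of Tnfrsf4, Tnfrsf9, Tnfrsf18 and Cd69 against the transcript length trend of each library (x axis, Spearman correlation across genes), 1 point per library with its replicate number. Among the 3 libraries with a trend below -0.5, EnPGC-1 2 has the lowest Tnfrsf4 and Tnfrsf9, while its Tnfrsf18 at 88.2 CPM is near Ctrl PIP 1 at 95.2 CPM. Among the libraries with a positive trend, Tnfrsf4 in DMSO 1 at 17.7 CPM is near SGC-CBP30 1 at 16.5 CPM. Tnfrsf9 in DMSO 1 at 53.7 CPM is above SGC-CBP30 2 at 35.4 CPM.

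Markers of other cells moved with some of the same libraries. Foxp3, which defines regulatory T cells, a cell that carries OX40 and GITR, was at 9.46 CPM in DMSO 1 and 13.8 CPM in EnPGC-1 1 and at 0.198 to 3.55 CPM in the other 6. The 7 CD4 and regulatory T cell markers, all detected, summed to 470 to 818 CPM in DMSO, 586 to 640 in EnPGC-1, 453 to 493 in Ctrl PIP and 552 to 603 in SGC-CBP30. Il2ra in that list was at 47.8 to 64.8 CPM in the 4 EnPGC-1 and SGC-CBP30 libraries and at 83.2 to 132 CPM in the other 4. Il2ra also stands in the list of genes induced by costimulation below, so it is not a marker of other cells alone. Zbtb7b had the same split by a narrow gap (5.12 to 8.64 against 8.73 to 13.2 CPM). The remaining markers of the list overlapped, with Ikzf2 at 132 to 185 against 58.4 to 208 CPM. The 8 NK cell markers, of which 5 to 7 were detected in a group, summed to 70.1 to 83.2 CPM in DMSO and 77.6 to 79.5 in Ctrl PIP, but 43.0 to 52.3 in EnPGC-1 and 43.7 to 48.8 in SGC-CBP30. Both Eomes, which activated CD8+ T cells also express, and Klre1 were lower in all 4 EnPGC-1 and SGC-CBP30 libraries than in the other 4, at 40.0 to 48.4 against 63.7 to 73.1 CPM and 0.777 to 2.38 against 4.11 to 7.45 CPM. Klrb1c had the same split at low levels, at 0 to 0.336 against 0.553 to 2.20 CPM. The remaining NK cell markers did not, with Fcer1g at 0.334 to 1.48 against 1 to 2.235 CPM. Ncr1 was at 0 to 0.534 CPM and Klra4 at 0 in all 8 libraries. The 10 B cell markers summed to 19.7 to 61.2 CPM over the 8 libraries, with SGC-CBP30 lowest. The 12 myeloid and dendritic cell markers, of which 8 to 12 were detected in a group, summed to 19.1 to 22.5 CPM in DMSO, 10.3 to 25.5 in EnPGC-1, 17.8 to 21.5 in Ctrl PIP and 11.4 to 12.4 in SGC-CBP30. Of these, Itgax (0.699 to 3.08 against 3.97 to 7.11 CPM) and Batf3 (0.258 to 0.631 against 2.42 to 3.45 CPM) had the same split of libraries. The remaining myeloid and dendritic cell markers overlapped, with Cd68 at 5.533 to 7.197 against 4.993 to 8.729 CPM. Lyz2, Fcgr3 and Flt3 were highest in EnPGC-1 1, so the list as a whole did not share the split. The 7 erythroid and platelet markers, 6 or 7 of them detected, summed to 9.40 to 22.3 CPM in DMSO, 14.4 to 44.2 in EnPGC-1, 5.22 to 8.04 in Ctrl PIP and 2.11 to 10.5 in SGC-CBP30. The platelet genes Pf4 and Ppbp were highest in EnPGC-1 1 (24.0 and 10.5 CPM) and DMSO 1 (11.4 and 7.18 CPM). Single genes named from these lists for their split were chosen after their values were seen. The part of these cells in the receptor values was not tested.

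A list of 10 genes that costimulation is known to induce was read beside the receptors, and 0 of them passed the adjusted test in any comparison. Like the other lists, it was chosen with earlier results of these data known, so its counts beside the background are a description only. For EnPGC-1 against DMSO, 10 of 10 such genes were below 0 with a median log2 fold change of -0.96, 6 of them at an unadjusted p under 0.05 (background 1.81%) and 0 called by edgeR. The median was -1.0 for SGC-CBP30 (9 of 10 below 0, 5 at an unadjusted p under 0.05, background 2.82%) and -0.17 for Ctrl PIP (8 of 10), both against the same DMSO libraries. Myc, which drives growth and metabolism after stimulation, was at 147 and 208 CPM in DMSO, 153 and 124 CPM in Ctrl PIP, 97.8 and 85.9 CPM in EnPGC-1 and 71.1 and 62.9 CPM in SGC-CBP30. Irf4, a transcription factor that scales with receptor signal strength, was at 52.8 and 88.4 CPM in DMSO, 68.4 and 60.1 CPM in Ctrl PIP, 24.6 and 38.7 CPM in EnPGC-1 and 40.1 and 39.6 CPM in SGC-CBP30. For both genes, EnPGC-1 and SGC-CBP30 libraries were below every DMSO and Ctrl PIP library. The log2 fold change of EnPGC-1 against DMSO was -0.95 ± 0.24 (SE) for Myc and -1.16 ± 0.32 for Irf4 (edgeR adjusted p = 0.998 for both).

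Transcripts of the signalling proteins under the receptors had medians close to that of all genes in EnPGC-1 and SGC-CBP30 against DMSO. For EnPGC-1 against DMSO, the 12 TRAF adaptors and genes of the non-canonical NF-kB arm had a median log2 fold change of 0.10, with 5 below 0, and the 15 CD28 and ICOS signalling proteins 0.07, with 5 below 0. For SGC-CBP30 against DMSO the medians were -0.08 and 0.05. None of these 27 genes had an unadjusted p under 0.05 in either comparison. Relb and Nfkb2, the transcription factor pair of the non-canonical arm, were at log2 fold changes of -0.37 ± 0.20 and -0.39 ± 0.22 with EnPGC-1. Akt1, a kinase downstream of PI3K, was at -0.37 ± 0.18, and Lcp2, the SLP-76 scaffold, at -0.35 ± 0.22. For Ctrl PIP against DMSO, 11 of the 12 and 14 of the 15 were below 0 (medians -0.18 and -0.11, all genes -0.05). For EnPGC-1 against Ctrl PIP, both medians were 0.20 (all genes 0.05), with 3 genes of each list below 0. For SGC-CBP30 against Ctrl PIP they were 0.11 and 0.16 (all genes 0.01).

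Other surface receptors and ligands held single genes with larger differences. Of 12 further costimulatory and counter receptors, 7 were below 0 with EnPGC-1 against DMSO (background 49.8%), with a median of -0.04, and 2 were lower and 0 higher at an unadjusted p under 0.05 (1.81% and 0.8%). With SGC-CBP30 against DMSO, 9 of 12 were below 0 (background 52.7%), with a median of -0.26, and 4 were lower and 0 higher at that level (2.82% and 1.57%). The 2 lower with EnPGC-1 were Tigit, an inhibitory receptor that competes with CD226 for ligand, at -1.05 ± 0.32, and Crtam, a nectin-family receptor of activated CD8+ T cells, at -0.62 ± 0.23. Tigit was at 37.0 and 54.3 CPM in DMSO, 41.3 and 26.6 CPM in Ctrl PIP, 18.2 and 25.9 CPM in EnPGC-1 and 20.8 and 24.0 CPM in SGC-CBP30. Every EnPGC-1 and SGC-CBP30 library was thus below those of DMSO and Ctrl PIP, though 25.9 and 26.6 CPM lie close. Among the 9 SLAM family receptors and SAP adaptors, the median was -0.05 with 1 lower at that level for EnPGC-1, and -0.18 with 3 lower for SGC-CBP30. Slamf7 was at -1.04 ± 0.37, from 19.1 and 34.5 CPM in DMSO to 12.4 and 13.7 CPM in EnPGC-1, and Sh2d1a, which encodes SAP, at -0.21 ± 0.32. Of 11 ligands of the members, 10 were tested, with a median of -0.25 and 1 lower at that level for EnPGC-1, and -0.59 and 2 lower for SGC-CBP30. Tnf, the ligand of Tnfrsf1b, was at 8.96 and 11.8 CPM in DMSO, 8.34 and 9.31 CPM in Ctrl PIP, 3.64 and 6.37 CPM in EnPGC-1 and 2.65 and 4.65 CPM in SGC-CBP30. Its EnPGC-1 value was -1.05 ± 0.40 and its SGC-CBP30 value -1.51 ± 0.41, both against DMSO (edgeR adjusted p = 0.998 and 0.943). Nectin2, a ligand of CD226, had 10 and 7 counts in DMSO and 0 in both EnPGC-1 libraries. It had 6 and 19 counts with SGC-CBP30 and 0 and 18 with Ctrl PIP. Its DMSO mean was 2.93-fold a limit of 3 counts set in each EnPGC-1 library. With counts this low and uneven within a group, no smallest difference was established.

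**Figure D4:**
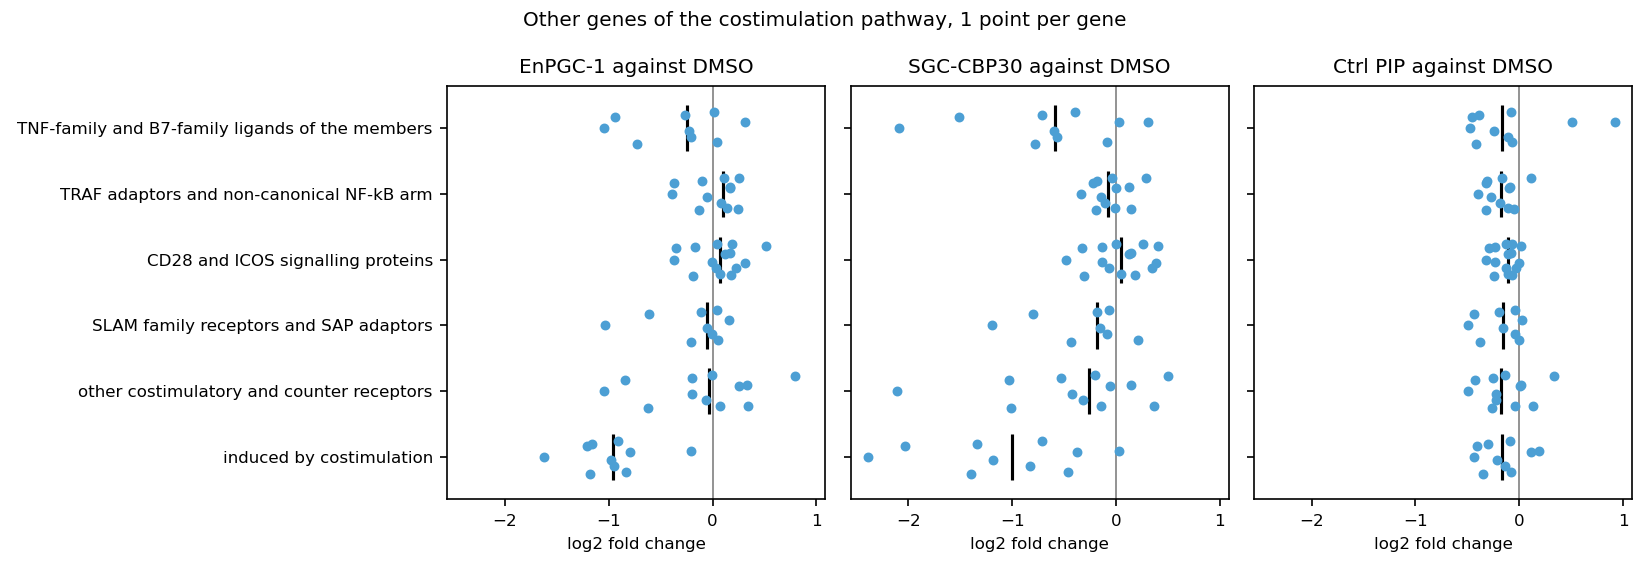
Log2 fold changes against DMSO (x axis) of the genes of 6 lists around the receptors (rows), 1 point per gene, with a black bar at the list median, for EnPGC-1, SGC-CBP30 and Ctrl PIP. The genes induced by costimulation have medians of -0.96, -1.0 and -0.17, and genes with 0 counts in a group (Nectin2 and Cd244a) are not drawn in the panel concerned.

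Among the members, Tnfrsf4 and Tnfrsf9 had the most similar profiles, with a Pearson correlation of log2 CPM of 0.97 over the 8 libraries, and Tnfrsf18 followed at 0.84 with Tnfrsf9 and 0.82 with Tnfrsf4. Cd226 ran opposite to them, at -0.85 with Tnfrsf18. Among the 9081 genes with a mean of at least 10 CPM, those most like Tnfrsf4 were Slc25a1 (0.997), Mydgf (0.994) and Mrps28 (0.993), and those like Tnfrsf9 included Dnajb5 (0.986) and Bhlhe40 (0.980). Icos was closest to Cd101 (0.945), Acsbg1 (0.941) and Cish (0.935), and Cd28 to Cggbp1 (0.969), Papss1 (0.968) and Cox15 (0.966). All points share the libraries' depth and length trends, and these genes were picked as the highest among all those compared.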

How the data were processed

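The authors deposited whole-number counts per gene under Entrez gene IDs, 1 column per library, and a table of regularized log2 values (rlog) of 16442 genes, which entered 1 alternative. Per the submitters' processing notes, the tools were HISAT2, StringTie and DESeq2 and the build mm10, without version or role. The counting method, its strand setting and its annotation were all not given in the sources used here, so overlapping and antisense genes may share counts. Libraries were made with a stranded poly(A) kit, per the labels' protocols.

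Counts of all 8 libraries were tested with edgeR 4.0.16 (R 4.3.3; TMM, filterByExpr by group, robust glmQLFit, glmQLFTest, two-sided, group means only, 4 residual degrees of freedom), with Benjamini-Hochberg adjustment over 16750 genes. Intervals are 95%. Symbols and positions came from RefSeq (GRCm38.p6, matching 99.8% of IDs), and lengths and GC content from the longest protein-coding GENCODE M21 transcript, known for 92.1% of genes tested. Alternatives were DESeq2 1.42.0 (size factors, Wald test), no filter, a replicate block, 4-library fits, limma 3.58.1 on rlog values and libraries left out. The length and GC offset (mgcv 1.9.3), its 4-library fit and a block with exchanged Ctrl PIP numbers were chosen after seeing the data. Members and lists were chosen with earlier results of these data known. The named genes were all members, per list the 2 with the smallest p in EnPGC-1 against DMSO, and the 3 genes most like each of 4 members, of which 1 is not reported here.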

Additional observations from a re-analysis of the deposited data

How the results depend on the processing

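With 2 libraries per group, 0 genes and 0 members were called by edgeR in the 6 comparisons, and most alternatives also gave 0. DESeq2's Wald test called 19 genes in EnPGC-1 against DMSO, 36 in EnPGC-1 against Ctrl PIP, 16 in EnPGC-1 against SGC-CBP30, 63 in SGC-CBP30 against DMSO, 2 in Ctrl PIP against DMSO and 31 in SGC-CBP30 against Ctrl PIP, and 0 members. The fit of only the 4 libraries of SGC-CBP30 and Ctrl PIP called 2470 genes (1138 higher and 1332 lower, 15.8%) and 3 members, all lower: Tnfrsf4 (edgeR adjusted p = 0.0143), Tnfrsf1b (0.0224) and Tnfrsf9 (0.0355). The common coefficient of variation was 0.154 in that fit, 0.415 over all 8 libraries and 0.543 in DMSO and EnPGC-1 alone. With the length and GC offset the same 4 libraries gave 1457 genes (564 higher and 893 lower, 9.3%) and 2 members, Tnfrsf1b (adjusted p = 0.0149) and Tnfrsf4 (0.033), while Tnfrsf9 was at 0.0686. Without replicate 1 of DMSO and EnPGC-1, 1095 genes (377 higher and 718 lower, 6.44%) and 2 members, Tnfrsf4 (adjusted p = 0.0245) and Tnfrsf9 (0.0419), were lower with EnPGC-1 than with DMSO. There the lone library of each group is assumed to vary like Ctrl PIP and SGC-CBP30. Leaving out replicate 2 of both groups instead gave log2 fold changes of -0.25 for Tnfrsf4 and -0.74 for Tnfrsf9. Those without replicate 1 were -1.83 and -2.19. The cause of these changes was not tested.

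Same-numbered libraries deviated together in DMSO and EnPGC-1 (correlation 0.666), and weakly in DMSO and SGC-CBP30 (0.227) and EnPGC-1 and SGC-CBP30 (0.231). Those of Ctrl PIP deviated weakly in the opposite direction to DMSO (-0.252) and EnPGC-1 (-0.226). With SGC-CBP30 the value was near 0 (-0.0387). The labels tie the numbers to nothing shared, so same-numbered libraries were not treated as pairs. With the replicate block, 0 genes and 0 members were called, and also with the numbers of Ctrl PIP exchanged. Of 60 member and comparison pairs, 27 kept their sign in all 19 alternatives. Of the 19 pairs with a log2 fold change of at least 0.4 in size, 3 did not: Tnfrsf18 with EnPGC-1 and with SGC-CBP30, and Tnfrsf9 with Ctrl PIP, each against DMSO. Leaving out a library of a group not compared keeps both compared groups whole, so such alternatives could hardly change a sign.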
